A study of Homo sapiens with 2 samples.

Results

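The mir-548 family is a group of human microRNA genes, and the guides described here were designed against its members within a genome-wide CRISPR knockout screen. The members were all rows of the guide count table whose target name was hsa-mir-548 followed by a letter, a hyphen or nothing further. They came to 258 guides against 70 loci, out of 123411 rows in the table. In all, 57 loci carried 4 guides, 5 carried 3, 7 carried 2 and 1 carried 1. The screen was run in SK-OV-3, a human ovarian cancer cell line, that stably carried a transcriptional readthrough (TRT) reporter. In this reporter mCherry and EGFP replace most of the coding sequences of the neighbouring genes COMMD3 and BMI1, so that EGFP is made when transcription runs on past the end of the upstream gene. The cells were transduced with the lentiviral GeCKO v2.0 library at a multiplicity of infection of around 0.3 and selected with puromycin at 2 µg/mL, and mCherry+ EGFP- cells (TRT-negative) were then collected by flow cytometry. The unsorted parental pool was the control, so both libraries shared the cell line, the reporter, the guide library and the selection. The label of the control names both fluorescent proteins, and it was read as unsorted from the design description.

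There was 1 sequencing library for each condition, with 12882989 guide reads in the unsorted library and 12444427 in the TRT-negative library. No difference between conditions could therefore be tested, and no p-value is given. Intervals are exact Clopper-Pearson 95% intervals and cover counting error only, not the chance by which a guide enters few or many cells. Guide counts carry no information on whether a mir-548 locus is transcribed in SK-OV-3 cells.

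A microRNA gene is transcribed as a hairpin precursor, which the nuclear enzyme DROSHA and the cytoplasmic enzyme DICER1 cut into a short mature strand. An Argonaute protein carries that strand to messenger RNAs, and pairing through the seed, bases 2 to 8 of the mature strand, largely sets which messages are repressed. The mir-548 genes are primate-specific and arose from Made1, a short mobile element with inverted repeats that folds into a hairpin when transcribed, so that members are similar to each other and to many other places in the genome. Cas9 can cut wherever a sequence matches a guide and lies beside an NGG PAM, so such similarity bears on which locus a guide can be said to target.

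The following mature sequences, from RefSeq on GRCh38.p14, are shown because the guides with the most marked counts were directed at their genes, or because their genes share a product. They are written 5′ to 3′ with the seed in capitals.
hsa-miR-548av-5p: aAAAGUACuugcggauuu
hsa-miR-548k: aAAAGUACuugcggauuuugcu
hsa-miR-548an: aAAAGGCAuugugguuuuug
hsa-miR-548f-3p: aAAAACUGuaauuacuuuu
hsa-miR-548ai: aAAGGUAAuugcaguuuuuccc
hsa-miR-548ar-5p: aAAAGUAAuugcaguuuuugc
hsa-miR-548ar-3p: uAAAACUGcaguuauuuuugc
The products of mir-548av and mir-548k share the seed AAAGUAC, and the 18 bases of miR-548av-5p are the first 18 of the 22 bases of miR-548k. Among the mature sequences matched to loci, the seed AAAACUG was found in miR-548f-3p, which is made from 5 loci, and in miR-548ar-3p. Matched mature sequences were used for 48 of the 70 loci and gave 50 different sequences with 29 different seeds, of which 21 were found at 1 of these loci. The loci without a sequence included all those on a single chromosome, named under the processing, so a seed may occur at more loci than counted here.

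All 70 loci were found in GENCODE 44 on hg38, on 21 chromosomes. The hairpin lay in an intron of a protein-coding gene at 45 loci, in an intron of a long non-coding RNA gene at 8 and between genes at 17. At 6 loci the hairpin overlapped that of another member. The hairpins of mir-548c and mir-548z are the 2 strands of chr12:64622509-64622605 in an intron of RASSF3, and those of mir-548aa-2 and mir-548d-2 lie at chr17:67471489-67471585 in an intron of PITPNC1. mir-548aa-1 and mir-548d-1 form the remaining overlapping pair. A guide against one member of such a pair is therefore also a guide against the other.

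Candidate Cas9 sites, meaning 20 bases followed by NGG and lying wholly within the annotated hairpin, were counted to describe how far these loci can be addressed singly. The guide sequences themselves were not used here. Counted by locus, the 70 hairpins held 237 candidate sites with a median of 3 for each locus, against a median of 7 for the 1749 other microRNA loci that were found in GENCODE. In these counts and those below, the sites of overlapping pairs were counted under both names. An exact match at a single place in hg38 was found for 119 of the family's sites (50.2%), compared with 87.6% of the sites in other microRNA hairpins. At the other end, 66 sites (27.8%) matched at 10 or more places, compared with 1.76%. At 18 loci, 2 of them without any candidate site, no candidate site matched at a single place. The same was found at 139 of the 1749 other microRNA loci. At 38 loci the library held more guides than the hairpin held candidate sites, as it did at 300 of the 1749 other microRNA loci. The guides at such a locus cannot each have a separate site that lies, with its PAM, wholly within the annotated hairpin. Fewer than 4 guides were present at 13 loci (18.6%), compared with 5.09% of the other microRNAs.

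The most repeated candidate site is shown because it ties members of the family together, with its PAM in capitals. It was read from the minus strand of hg38 at chr17:67471548-67471570, within the mir-548aa-2 hairpin.
most repeated mir-548 candidate site: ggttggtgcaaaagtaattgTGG
These 20 bases followed by NGG occurred at 1112 places in hg38. They lay in the hairpins of 15 family members, including all 6 members of the overlapping pairs, and in no other microRNA hairpin examined. Of the 258 family rows, 50 stood directly beside another family row of the counts, and the longest unbroken stretch was 10 rows from 9 loci: mir-548ad, mir-548ap, mir-548c, mir-548h-2, mir-548h-4, mir-548i-4, mir-548n, mir-548t and mir-548z. All 9 of these loci hold the repeated site, as do 6 of the other 61. None of these 10 rows had a read in either library.

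Most mir-548 guides were not read. In the unsorted library 17 of 258 guides (6.59%, 95% interval 3.88 to 10.3) had at least 1 read, and in the TRT-negative library 48 guides (18.6%, 14.0 to 23.9) did. Among the 7030 guides against other microRNAs the shares were 9.13% (8.47 to 9.83) and 21.6% (20.6 to 22.5). The intervals of the family and of the other microRNAs overlapped in both libraries. Guides against other microRNA families with several loci were read more often, at 13.6% (11.5 to 15.8) and 28.6% (25.9 to 31.5), and these intervals did not overlap those of the mir-548 guides. In that group, however, 204 of 1009 rows stood beside a row with identical counts that were not both 0, compared with 9 of 258 mir-548 rows. Such rows may be a single guide listed more than once, and the intervals treat them as separate. Shares with repeated rows counted once are not given for that group, so this difference may partly reflect repeated listing, which was not tested. Protein-coding guides in the same part of the library, which holds all microRNA guides, stood at 9.89% and 22.9%. The 1000 non-targeting guides stood higher, at 17.7% and 35.6%. They are listed under both parts of the library, whereas microRNA guides are in 1 part only, so these shares are not directly comparable.

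Read by locus, 29 of the 70 loci had no guide read in either library, 32 had 1, 8 had 2, and mir-548av alone had 3. A share of 41.4% of loci without a read guide compares with 39.7% of the other microRNA targets. Guides at loci in introns of protein-coding genes were read in 33 of 164 cases in the TRT-negative library (20.1%, 14.3 to 27.1) and those between genes in 11 of 63 (17.5%, 9.05 to 29.1). For introns of long non-coding RNA genes the count was 4 of 31 (12.9%, 3.63 to 29.8), and 0 of 31 were read in the unsorted library, where the interval reached 11.2%. These intervals overlapped. Hairpins with the 1112-place site and those without it gave 18.3% (11 of 60) and 18.7% (37 of 198) of guides read in TRT-negative cells.

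The 17 guides read before sorting fell into clearly separate ranges. Of these, 14 had at least 30 reads and are called well-read below, while the remaining 3, against mir-548ad, mir-548aq and mir-548j, had at most 4 reads. All 14 well-read guides were read again after sorting. A further 34 guides (13.2%, 9.30 to 17.9) were read in TRT-negative cells only, at 28 loci, close to the 13.0% among other microRNA guides. Their counts ran from 1 to 436 reads with a median of 28, against a median of 34 for other microRNA guides read only after sorting. In all, 11 of the 34 had under 10 reads and 18 had from 10 to 58, so most were read at low depth.

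Enrichment was scored as log2((TRT-negative + 1)/(unsorted + 1)) of the normalized counts, and the cutoff for enrichment was a log2 ratio of 5.93, which 95% of the non-targeting guides did not exceed. A guide with no unsorted read passed this with 60 or more TRT-negative reads. By this rule 5 of the 258 mir-548 guides were enriched (1.94%, 0.632 to 4.46), compared with 2.87% of all targeting guides and 2.87% of the other microRNA guides. The family's share thus did not stand above the background. All 5 had 0 reads in the unsorted library, so their fold changes are lower bounds, computed against 3 reads in that library, and cover the sampling of reads only.

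The mir-548av locus (chr18:72853321-72853382, minus strand, in an intron of NETO1, a neuronal membrane protein gene) held 2 of the 5 enriched guides. Its guides went from 0 unsorted to 436 TRT-negative reads, from 0 to 158, and from 367 to 291, while the last was unread in both libraries. The first was at least 151-fold higher and the second at least 54.7-fold higher in TRT-negative cells. The well-read guide of the same locus had a log2 ratio of -0.28 (-0.51 to -0.05). Guides of this locus thus gave unlike readouts, with 2 read in large number after sorting only and 1 nearly level. The 436 reads exceeded those of 99.3% of the other microRNA guides read only after sorting. A locus with 2 enriched guides was 1 of 70 in the family (1.43%), 9 of the 1794 other microRNA targets (0.502%) and 6 of the 260 targets in other families of several loci (2.31%). All 4 candidate sites in the mir-548av hairpin matched hg38 at a single place.

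The other 3 enriched guides were close to the threshold. The mir-548ai guide (chr6:99124609-99124696, between genes) had 0 unsorted and 70 TRT-negative reads, at least 24.2-fold higher, and the other 3 guides of the locus were unread. The mir-548ar guide (chr13:114244505-114244561, in an intron of CDC16, which encodes a subunit of the anaphase-promoting complex) had 0 and 69 reads, at least 23.9-fold higher, and its only other guide was unread. The mir-548h-2 guide (chr16:11306440-11306527, antisense within an intron of RMI2, a gene of the BLM helicase complex) had 0 and 62 reads, at least 21.5-fold higher, with 3 unread guides beside it. Just below the threshold stood a mir-548s guide with 0 and 58 reads and a log2 ratio of 5.91, named here only for its place. At these 3 enriched loci and at mir-548s, a single guide carried all reads of the locus.

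The 14 well-read guides were spread over 14 loci, so 0 of the 70 loci had a second guide at that depth. Among the other microRNAs, 69 of 1794 targets did. Their median log2 ratio was -0.26 with an SD of 1.36 over guides and a range of -2.80 to 1.58, and 10 of the 14 (71.4%) lay below 0, beside 66.7% of the well-read guides against other microRNAs. The 556 well-read guides against other microRNAs had a median of -0.68 (SD 1.36), and the 156 well-read non-targeting guides had a median of -0.89 (SD 1.33). The binomial 95% interval of the family's median over its 14 guides ran from -2.47 to 1.01 and so held the medians of both other groups. Scaling on the non-targeting guides raised the ratios of all groups alike, by 0.29, which put the family's median at 0.029 and that of the other microRNAs at -0.39.

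At least 2-fold more reads in TRT-negative cells were found for 3 of the 14 well-read guides (21.4%), beside 12.1% of all well-read targeting guides. The mir-548an guide went from 1191 unsorted to 3425 TRT-negative reads, a log2 ratio of 1.58 (1.48 to 1.67), and the other 3 guides of the locus were unread. This locus lies at chrX:106639814-106639896 in an intron of RADX, which encodes a single-stranded DNA binding protein of replication forks. The ratio exceeded those of 92.8% of the well-read guides against other microRNAs and of 94.9% of the well-read non-targeting guides. The mir-548v guide (chr8:17681578-17681657, in an intron of MTUS1) went from 108 to 226 reads, a log2 ratio of 1.11 (0.78 to 1.46). The mir-548f-1 guide (chr10:54607874-54607957, in an intron of PCDH15, a cadherin of inner-ear hair cells) went from 854 to 1652 reads. Its log2 ratio of 1.01 (0.89 to 1.13) sat at the 2-fold limit. In the alternative with libraries scaled to equal totals the ratio fell below that limit, leaving 2 such guides. That alternative also put the counts on a smaller scale, where the pseudocount of 1 weighs more, and the enrichment cutoff there was 2.54. The fall therefore cannot be ascribed to the equal totals. The remaining guides of mir-548v and mir-548f-1 were unread.

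At least 2-fold fewer reads were likewise found for 3 of the 14 (21.4%), beside 39.2% of all well-read targeting guides. The mir-548k guide fell from 2270 to 314 reads, 6.95-fold, with a log2 ratio of -2.80 (-2.97 to -2.63). Its locus lies at chr11:70283955-70284070 in an intron of PPFIA1, which encodes the adhesion scaffold protein liprin-alpha-1. Only 4.32% of the well-read guides against other microRNAs had a lower ratio, as did 2.56% of the non-targeting ones. The mir-548az guide (chr8:119325171-119325265, between genes) went from 2058 to 354 reads, a log2 ratio of -2.48 (-2.65 to -2.32). The mir-548i-2 guide (chr4:9556168-9556316, between genes) went from 1243 to 215 reads, a log2 ratio of -2.47 (-2.69 to -2.27). A second mir-548i-2 guide had 0 unsorted and 33 TRT-negative reads, so 1 read guide of that locus had fewer reads after sorting and the other had more. All other guides of mir-548k, mir-548az and mir-548i-2 were unread.

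The remaining 8 well-read guides stayed within 2-fold. The mir-548t guide, in an intron of GALNT7 at chr4:173268160-173268233, was the most abundant guide of the family in both libraries and went from 3383 to 5270 reads (log2 ratio 0.69). The mir-548a-3 guide went from 607 to 329 reads (-0.83) and the mir-548ax guide from 387 to 241 (-0.63). The mir-548e guide went from 565 to 448 reads (-0.28), and the second read guide of that locus had 0 and 1 reads. At mir-548t, mir-548a-3 and mir-548ax the other guides were unread.

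The well-read guides can be set side by side where their loci make the same or nearly the same mature strand. The 5 loci that encode miR-548f-3p had 1 read guide each at mir-548f-1, mir-548f-2 and mir-548f-3, and none at mir-548f-4 and mir-548f-5. The mir-548f-1 guide had a log2 ratio of 1.01, the mir-548f-3 guide went from 1474 to 1418 reads (-0.0019), and the mir-548f-2 guide had 0 unsorted and 49 TRT-negative reads. Guides against loci with an identical product thus covered unlike ratios. The same held for the seed AAAGUAC, where the mir-548k guide had the lowest ratio of the well-read family guides and mir-548av held the 2 guides with the highest TRT-negative counts among those read only after sorting. Among the matched mature sequences, the most common seed was AAAGUAA, at 10 loci with 34 guides. Of these guides, 2 were read in unsorted cells, 7 in TRT-negative cells and 1 was enriched. For AAAAACU, at 9 loci with 28 guides, these counts were 2, 3 and 0, and for AAGGUAA, at 4 loci with 13 guides, they were 0, 2 and 1. Among the 48 loci with a matched mature sequence, no seed had enriched guides at more than 1 locus. The mir-548h-2 locus, which held an enriched guide, had no matched sequence and was not compared.

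Rows that hold identical counts in both libraries and stand next to each other may be a single guide sequence listed under separate names, which was not tested because guide sequences were not used. Such a neighbour, with equal counts that were not both 0, was found for 9 of the 258 family rows (3.49%, 1.61 to 6.52), compared with 4.28% of the rows of other microRNAs and 20.2% (17.8 to 22.8) of those of other families with several loci. The rows of mir-548c and mir-548z each held 875 unsorted and 709 TRT-negative reads (log2 ratio -0.25), and the other 3 guides of both loci were unread. Rows of mir-548aa-2 and mir-548d-2 matched at 0 and 28 reads and again at 0 and 7, and rows of mir-548aa-1 and mir-548d-1 matched at 0 and 3. These 3 pairs are the loci that overlap on the genome, and for each of them all 4 guides had equal counts in both names, unread ones included. The 1 family row that matched outside the family was a mir-548aj-2 row beside a row of the protein-coding gene C1orf192, both at 0 and 26 reads. With both counts required to be above 0, 2 family rows were left, those of mir-548c and mir-548z. The 14 well-read guides may therefore include 1 guide that was counted under both names.

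The family's guides took up 16263 unsorted reads (0.126% of the library) and 17045 TRT-negative reads (0.137%), while they made up 0.209% of the rows. The mir-548t guide supplied much of this, since without the most abundant guide the shares were 0.100% and 0.0947%. The order of the libraries was reversed without that guide.

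Genes that make and use microRNAs were examined as the pathway on which all mir-548 products depend. All 30 genes of the list were found, with 179 guides, of which 16 (8.94%, 5.20 to 14.1) were read in unsorted and 33 (18.4%, 13.0 to 24.9) in TRT-negative cells. Enriched guides numbered 4 (2.23%, 0.612 to 5.62), beside the 2.87% of all targeting guides, and no gene had more than 1. They were directed at TARBP2, a partner of DICER1 (0 unsorted and 127 TRT-negative reads), XRN2, a nuclear exonuclease (0 and 101), DDX17, a helicase that works with DROSHA (0 and 93), and MOV10, an Argonaute-associated helicase (0 and 64). A second XRN2 guide fell from 826 to 354 reads, and a second MOV10 guide had 0 and 48. Of the 12 well-read guides of the list, 3 were at least 2-fold higher and 4 at least 2-fold lower, with a median log2 ratio of 0.10, while all well-read targeting guides had shares of 12.1% and 39.2% and a median of -0.64. Among the core genes, named after their values were seen, DROSHA had 1 read guide of 6, which went from 900 to 3129 reads (log2 ratio 1.85), and DICER1 had 2 with 0 unsorted and 55 TRT-negative reads each. These identical DICER1 counts came from the 2 parts of the library and may be a single guide sequence listed in both, which was not tested. None of the 6 guides against DGCR8, the partner of DROSHA, was read.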

How the data were processed

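Guide-encoding sequences were amplified from genomic DNA of unsorted and TRT-negative SK-OV-3 cells, and 1 library of each was sequenced. The deposited count table holds raw reads per guide, and the submitters' processing notes name MAGeCK and hg38. Its version and the rule for matching reads to guides were not given in the sources used here. A deposited signal table holds normalized counts, which were the raw counts times 0.982 (unsorted) and 1.02 (TRT-negative). Tables of the authors' own comparison (fold changes, scores and p-values per guide and target) were not used.

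Tables were joined by guide name. Log2 ratios used the normalized counts and a pseudocount of 1. Non-targeting guides, listed under both library parts, entered once in shares, well-read values and scaling. The enrichment cutoff was taken over all their rows. Hairpins were located in GENCODE 44, and exact matches beside NGG were counted in hg38 chromosomes 1 to 22, X and Y. No mature sequence was used for the 8 family loci on chromosome 8, which include mir-548a-3, mir-548az and mir-548v. Their seeds were therefore not compared. Python 3.11.15, numpy 2.4.6, pandas 2.3.3 and scipy 1.17.1 were used, and the calling code was tested on simulated data. Reads were counted without molecular identifiers. Guide counts are given for loci with an enriched guide, for loci with identical well-read rows and for the 5 highest and 5 lowest well-read ratios, with any other locus chosen after its values were seen. Alternatives covered scaling, pseudocount, read minimum, percentile and repeated rows. The members and lists were chosen with earlier results of these data known.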

Additional observations from a re-analysis of the deposited data

How the results depend on the processing

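Counts were taken as changed beyond 1.5 times, and shares and the median beyond their 95% binomial interval or, for the median, at a change of sign. By these limits 29 of 37 alternative values did not change. The median log2 ratio of the well-read mir-548 guides turned from -0.26 to 0.029 with scaling on the non-targeting guides, which raised all groups alike and put the other microRNAs at -0.39, and its binomial interval over guides ran from -2.47 to 1.01. The 5 enriched guides became 2, both against mir-548av, when the cutoff was raised to the 99th percentile of non-targeting ratios, where 0.413% of the other microRNA guides passed. Among guides with at least 30 unsorted reads, the count was 0, compared with 7.19% of other microRNA guides, though the mir-548an guide at 1.5771 lay just under the cutoff of 1.5798. Scaling to equal totals, which also gave the pseudocount more weight, left 2 rather than 3 guides at least 2-fold higher, a count within 1.5 times. Rows beside an identical row numbered 2 with both counts above 0. The share of reads was 0.133% (unsorted) and 0.147% (TRT-negative) with 1 row of each run of identical rows, and 0.100% and 0.0947% without the most abundant guide. Counting overlapping loci once, an alternative chosen after seeing the data, gave 6.50% and 17.9% of guides read. No paired analysis was possible because each condition had 1 library. With 1 library for each condition and 80.2% of the family's guides unread in both, differences between conditions cannot be told apart from differences between single libraries.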
